A study of Mus musculus with 12 samples.

Results

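The heart takes up fatty acids, stores a small reserve of them as triglyceride in lipid droplets, and releases them again for oxidation. The expression of 10 mouse genes of this path, Cd36, Lpl, Fabp3, Fabp4, Plin2, Plin5, Pnpla2, Dgat1, Dgat2 and Ces1d, is described here in hearts with reduced CELF activity. They were chosen by name: every probe on the array whose current or older gene symbol matched one of them was used. This gave 12 of 45281 probe identifiers. Lpl and Plin5 each had a pair of identifiers with identical values on every array, so the set held 10 of 30854 distinct features, 1 for each gene.

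CELF proteins regulate alternative splicing. The hearts came from FVB/N females aged 3 weeks. The transgene of the severe line (MHC-CELF∆-10) and the mild line (MHC-CELF∆-574) encodes a dominant negative CELF protein that acts in the nucleus, and its promoter, that of α-myosin heavy chain, drives it in heart muscle cells after birth. The transgenic animals carried it on a single allele, and the wild type arrays came from littermates without it. Total RNA of whole hearts was read on Illumina MouseWG-6 v2.0 BeadChips, with 3 arrays for each line and 3 for its littermates, so that either line was compared with 6 wild type arrays. One transgenic line of each kind was used, so a line stands for itself, and the level of the transgene was not analysed here. The study used 3 females of each line and 3 littermates of each, which matches 1 animal for each array.

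Fatty acids reach heart muscle either bound to albumin or inside circulating lipoproteins, from which lipoprotein lipase on the capillary wall frees them. CD36 carries them across the membrane and FABP3 through the cytoplasm. DGAT enzymes esterify the surplus to triglyceride, perilipins coat the resulting droplets, and lipases on the droplet surface, above all ATGL (encoded by Pnpla2), return the fatty acids to the mitochondria. Many genes of this path are targets of the nuclear receptors of the PPAR family, which recognise repeats of the element AGGTCA.

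Promoter sequence from RefSeq (build GRCm38.p6) was at hand for 5 of the 10 genes, Cd36, Fabp3, Plin2, Plin5 and Pnpla2. The 250 bases before an annotated transcription start are printed for Fabp3, Plin5 and Plin2. The mRNAs of Fabp3 and Plin5 were lower in both lines, as described below. Plin2 is a droplet coat gene with a smaller difference. Each sequence is written 5′ to 3′ along the gene. Capitals mark matches, on either strand, to AGGTCA, to the CCAAT element or to the GC box GGGCGG; a match on the other strand is capitalised as it reads here.
Fabp3, chr4:130308488-130308737, plus strand: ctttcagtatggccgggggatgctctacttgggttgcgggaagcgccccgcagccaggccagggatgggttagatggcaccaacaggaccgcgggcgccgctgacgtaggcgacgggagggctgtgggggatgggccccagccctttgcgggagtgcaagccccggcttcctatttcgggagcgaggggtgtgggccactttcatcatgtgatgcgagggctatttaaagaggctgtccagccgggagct
Plin5, chr17:56117549-56117798, minus strand: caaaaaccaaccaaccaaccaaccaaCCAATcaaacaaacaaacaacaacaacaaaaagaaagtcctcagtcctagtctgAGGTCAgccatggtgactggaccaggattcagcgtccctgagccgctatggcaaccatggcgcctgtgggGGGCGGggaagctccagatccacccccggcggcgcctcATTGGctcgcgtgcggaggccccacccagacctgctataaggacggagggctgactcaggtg
Plin2, chr4:86670060-86670309, minus strand: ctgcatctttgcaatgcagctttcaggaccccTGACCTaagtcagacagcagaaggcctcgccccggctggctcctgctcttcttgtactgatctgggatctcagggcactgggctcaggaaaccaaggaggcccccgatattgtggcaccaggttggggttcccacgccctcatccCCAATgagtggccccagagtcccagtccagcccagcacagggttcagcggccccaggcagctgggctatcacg

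The annotated gene of Plin2 reaches chr4:86670217 and that of Plin5 chr17:56117606. Both lie upstream of the starts used here, so part of each of these printed windows falls inside the gene. More than one start had a window for Plin5, and the printed window precedes the upstream one of these. It held AGGTCA 170 bases before that start, with a CCAAT element at 224 and another, on the opposite strand, at 62, and a GC box at 100. The window before the other start of Plin5 held GC boxes at 239 and 53 and neither AGGTCA nor CCAAT. Plin2 held AGGTCA on the opposite strand at 218 and CCAAT at 73. Fabp3 held none of the 3 elements in this window. Among all 32851 promoter windows of this length, 14% held AGGTCA, 33.8% CCAAT and 32.7% the GC box, so single matches such as these were frequent. The spaced repeat AGGNCANAGGNCA, the form bound by PPAR heterodimers, was found in 0.338% of all windows and in none of the members' windows. A match describes the letters only.

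All levels below are log2 intensities after background correction and quantile normalization of the 12 arrays. They are given for each array and compared between arrays of the same probe, never between genes, because probes differ in brightness. Median intensity before normalization was 116.2 to 118.8 on the severe line arrays and 102.8 to 112.5 on the other 9. The choice of normalization mattered for bright probes in the severe line. With median scaling in place of quantile normalization, the log2 fold change moved from -0.42 to -0.61 for Lpl and from -0.36 to -0.53 for Fabp3. For the dim probes of Cd36 and Fabp4 it was 0.05 and -0.01 before, and 0.05 and -0.02 after. A feature was called when its adjusted p (limma, Benjamini-Hochberg over all 30854 features) was under 0.05.

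Of the 10 genes, 4 were lower in the mild line (Lpl, Fabp3, Plin5 and Ces1d) and 5 in the severe line (these 4 and Dgat2), and none was higher in either. For comparison, 1.93% of all features were called lower in the mild line and 1.62% higher. In the severe line 1.56% were lower and 1.75% higher. The members were chosen with earlier results of these data known, so these shares give a scale and not a test. Cd36 and Fabp4 read near the median signal of the array, 6.28, in every group. The other 8 lay over it, a range in which 5.73% of all features were called lower for the mild line and 4.74% for the severe line. The largest difference among them was that of Ces1d, which in the mild line was at 27.3% of the wild type level and in the severe line at 47.4%. The same 6 wild type arrays served both comparisons. In RNA of whole hearts, fewer cells of a type and less RNA per cell cannot be told apart.

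**Figure D1:**
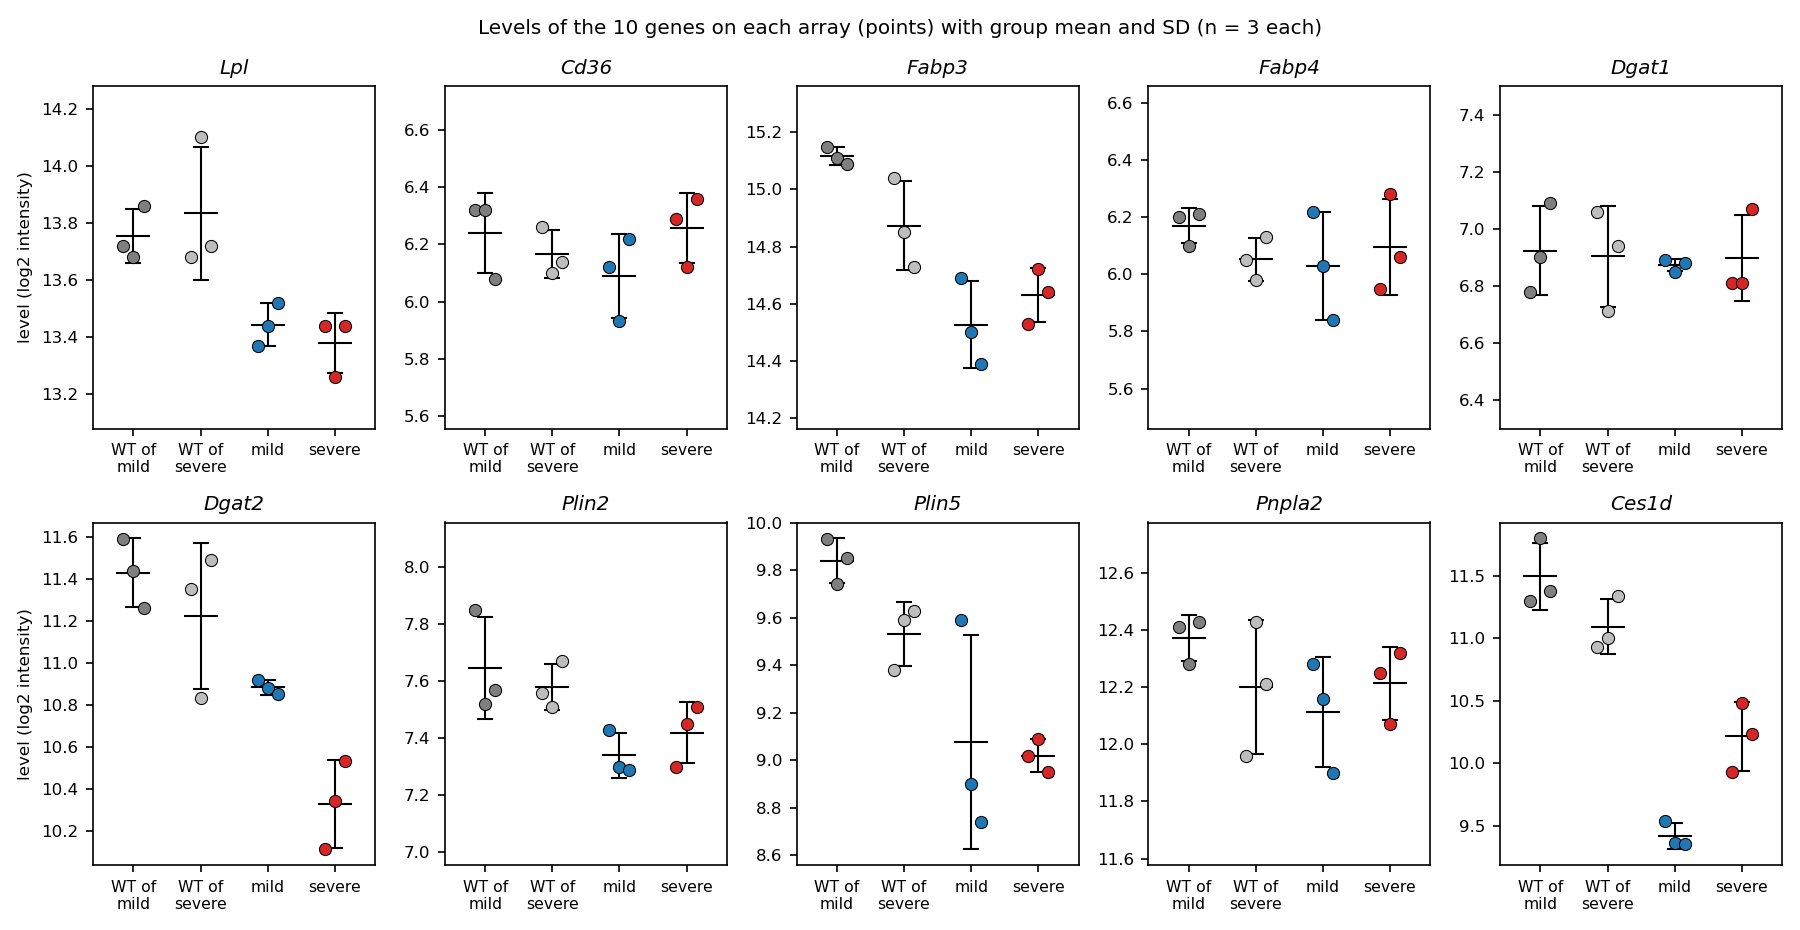
Level of each gene (y axis, log2 intensity, with its own range in each panel) on the 3 arrays of each of 4 groups, wild type (WT) littermates of the mild line, wild type littermates of the severe line, mild line and severe line; points are arrays, the horizontal line the group mean and the bar its SD. Ces1d, Lpl and Fabp3 lie below all wild type arrays in both lines, while Cd36, Fabp4 and Dgat1 overlap throughout.

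Lpl encodes lipoprotein lipase, which heart muscle cells secrete and which acts on the capillary surface (gene at chr8:68880555-68906932, GRCm38.p6). Its level was 13.72, 13.68 and 13.86 in the mild line's wild type littermates and 13.68, 14.10 and 13.72 in the severe line's. Mild line arrays read 13.37, 13.44 and 13.52, severe line arrays 13.44, 13.26 and 13.44. All 6 transgenic arrays therefore lay below the lowest wild type array. Lpl fell by 0.35 in the mild line (log2 fold change, SE 0.088, limma adjusted p = 0.0307), to 78.4% of the wild type level of 13.80 ± 0.16 (SD, n = 6), and by 0.42 in the severe line (SE 0.088, limma adjusted p = 0.0106), to 74.9%. The mild line call did not survive the omission of mild line replicate 1, 2 or 3 (adjusted p = 0.172, 0.129 and 0.0645) or of replicate 3 of its littermates (0.0582), with log2 fold changes of -0.31, -0.35, -0.39 and -0.34. It was also lost against its own 3 littermates alone (adjusted p = 0.17) and under median scaling (log2 fold change -0.37, adjusted p = 0.0537). In all, the mild line call was lost in 8 of 24 alternative settings. In the severe line the omission of replicate 2 ended the call (log2 fold change -0.36, adjusted p = 0.0748).

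Proteins that handle lipoprotein lipase were looked at after the values of Lpl were seen. Gpihbp1, whose product carries the enzyme to the capillary lumen, had a wild type mean of 10.31, with 0.10 (mild) and -0.20 (severe) as its log2 fold changes (limma adjusted p = 0.835 and 0.495). Angptl4, which encodes an inhibitor of the enzyme, was at 7.03 in wild type, with -0.35 and -0.01 (limma adjusted p = 0.347 and 0.995). Neither passed the test.

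Fabp3, the cytoplasmic fatty acid binding protein of heart and skeletal muscle (chr4:130308738-130315463), read 15.15, 15.11 and 15.09 in the littermates of the mild line and 15.04, 14.85 and 14.73 in those of the severe line. The mild line arrays read 14.69, 14.50 and 14.39 and the severe line arrays 14.53, 14.72 and 14.64. Here too no transgenic array reached the lowest wild type array, though the severe line's replicate 2 missed it by very little. Fabp3 fell by 0.46 in the mild line (SE 0.093, limma adjusted p = 0.00565), to 72.5% of wild type, and by 0.36 in the severe line (SE 0.093, limma adjusted p = 0.0358), to 77.7%. The mild line call was lost without mild line replicate 3 (log2 fold change -0.40, adjusted p = 0.0645).

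The severe line call of Fabp3 depended on which wild type arrays stood beside it. Against its own 3 littermates the log2 fold change was -0.25 (limma adjusted p = 0.245), whereas the mild line differed from its own by -0.58 (limma adjusted p = 0.00104). The call was also lost when any of the 3 severe line arrays was left out (adjusted p = 0.221, 0.054 and 0.106 for replicates 1, 2 and 3), or any littermate of the mild line (0.0712, 0.0797 and 0.0708), or replicate 1 of the severe line's littermates (0.0595); the log2 fold change then ran between -0.41 and -0.32.

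Cd36, the membrane carrier of long-chain fatty acids, gave no usable contrast. Its wild type arrays read from 6.08 to 6.32, its mild line arrays 6.12, 5.93 and 6.22 and its severe line arrays 6.29, 6.12 and 6.36, all close to the median signal of 6.28. The 95% intervals of its log2 fold change were -0.29 to 0.06 in the mild line and -0.12 to 0.23 in the severe line. Cd36 is known as a strongly expressed gene of the heart, so this probe's dim signal limits what it says of the transcript.

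Fabp4, the fatty acid binding protein of adipocytes, capillary endothelium and macrophages, was as dim. Wild type arrays read from 5.98 to 6.21, the mild line 6.22, 6.03 and 5.84 and the severe line 5.95, 6.28 and 6.06. The groups overlapped, with limma adjusted p = 0.814 (mild) and 0.979 (severe).

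Dgat1 and Dgat2 encode the enzymes that complete triglyceride synthesis. Dgat1 read between 6.71 and 7.09 in wild type, 6.85 to 6.89 in the mild line and 6.81 to 7.07 in the severe line, and it was not called; the 95% intervals of its log2 fold change were -0.22 to 0.15 and -0.20 to 0.17. Dgat2, whose enzyme resides at the endoplasmic reticulum and at droplets (chr7:99153663-99182713), read 11.59, 11.44 and 11.26 in the littermates of the mild line and 11.35, 10.83 and 11.49 in those of the severe line. Mild line levels were 10.92, 10.88 and 10.85, and severe line levels were 10.11, 10.34 and 10.53. The severe line lay below every wild type array, while the mild line lay below all of them but replicate 2 of the severe line's littermates, at 10.83.

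Dgat2 fell by 1.0 in the severe line (SE 0.13, limma adjusted p = 9.23e-05), to 50% of the wild type level of 11.33 ± 0.27 (SD, n = 6). It kept this call under each of 24 alternative settings, where the log2 fold change ran from -1.16 to -0.89. In the mild line the log2 fold change was -0.45 (95% interval -0.71 to -0.18), with a limma adjusted p of 0.0617 that missed the threshold. It passed without replicate 2 of the severe line's littermates (log2 fold change -0.54, adjusted p = 0.00141) and against the mild line's own littermates (-0.55, adjusted p = 0.0467).

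Plin2 and Plin5 encode coat proteins of the lipid droplet. Plin2, found in most tissues, read 7.51 to 7.85 in wild type, 7.43, 7.30 and 7.29 on the mild line arrays and 7.30, 7.45 and 7.51 on the severe line arrays. Every transgenic array lay below every wild type array, yet in the severe line the highest array and the lowest wild type array were 7.51 alike after rounding. Its log2 fold changes of -0.27 (mild, SE 0.08, limma adjusted p = 0.0728) and -0.19 (severe, SE 0.08, limma adjusted p = 0.268) did not pass.

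Plin5, the perilipin of oxidative tissues that ties droplets to mitochondria and restrains ATGL (chr17:56111597-56117606), read 9.93, 9.74 and 9.85 in the littermates of the mild line and 9.38, 9.59 and 9.63 in those of the severe line. Mild line arrays read 9.59, 8.90 and 8.74, severe line arrays 9.02, 9.09 and 8.95. The severe line arrays were close together and below all wild type arrays. The mild line arrays were spread, with replicate 1 inside the wild type range. Plin5 fell by 0.61 in the mild line (SE 0.14, limma adjusted p = 0.0185), to 65.6% of wild type, and by 0.67 in the severe line (SE 0.14, limma adjusted p = 0.0109), to 63.1%.

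Single arrays mattered for Plin5. In the mild line the log2 fold change was -0.52 without replicate 2 and -0.44 without replicate 3, and the call was lost (adjusted p = 0.155 and 0.179). In the severe line it was lost without replicate 1 (-0.67, adjusted p = 0.0593) or replicate 3 (-0.63, adjusted p = 0.0652), and against the severe line's own littermates (-0.51, adjusted p = 0.0967).

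Pnpla2 encodes ATGL, the lipase that removes the first fatty acid from triglyceride. Its wild type arrays ran from 11.96 to 12.43, the mild line read 12.28, 12.16 and 11.90 and the severe line 12.25, 12.07 and 12.32. The ranges overlapped. The log2 fold change of the mild line was -0.17 (95% interval -0.39 to 0.04) and that of the severe line -0.07 (-0.29 to 0.15). Its partners, also chosen after the values were seen, did not pass either: Abhd5, which encodes the co-activator CGI-58, had log2 fold changes of -0.30 and -0.19 (limma adjusted p = 0.0762 and 0.348), and G0s2, which encodes an inhibitor, -0.41 and -0.30 (limma adjusted p = 0.5 and 0.638).

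Ces1d encodes a carboxylesterase of the endoplasmic reticulum, known in mouse liver and adipose tissue as triacylglycerol hydrolase (chr8:93166072-93197804). It read 11.30, 11.80 and 11.38 in the littermates of the mild line and 10.93, 11.00 and 11.34 in those of the severe line. The mild line arrays stood at 9.54, 9.36 and 9.35, the severe line arrays at 9.93, 10.48 and 10.23. The 3 groups did not overlap: all mild line arrays were below all severe line arrays, and these below all wild type arrays. The deposited intensities before normalization had the same order, from 655.3 to 765.5 in the mild line, 942.8 to 1363 in the severe line and 1895 to 3878 in wild type.

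Ces1d fell by 1.88 in the mild line (SE 0.15, limma adjusted p = 2.12e-07), a 3.67-fold lower level, and by 1.08 in the severe line (SE 0.15, limma adjusted p = 0.000207), a 2.11-fold lower level. Both calls held under each of 24 alternative settings, with log2 fold changes of -2.08 to -1.77 in the mild line and -1.22 to -0.87 in the severe line. Ces1d was the one member that met the rule of the study's methods (a change of at least 2-fold with an adjusted p under 0.05 or an unadjusted p under 0.001), in both lines. That rule took 0.143% of all features as lower for the mild line and 0.0162% for the severe line. Dgat2 in the severe line missed the 2-fold limit in the fourth decimal place (-0.9992 on the log2 scale).

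Ces1d lies in a cluster of related carboxylesterase genes. The 6 others of that family on the array (Ces1a, Ces1b, Ces1c, Ces1e, Ces1f and Ces1g) were inspected after the values of Ces1d were known. All 6 were near the median signal, with wild type means from 6.07 to 6.28, and 0 were called in either line, where their log2 fold changes ran from -0.10 to 0.05 (mild) and from -0.16 to 0.15 (severe). Whether the Ces1d probe also binds their transcripts was not tested.

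**Figure D2:**
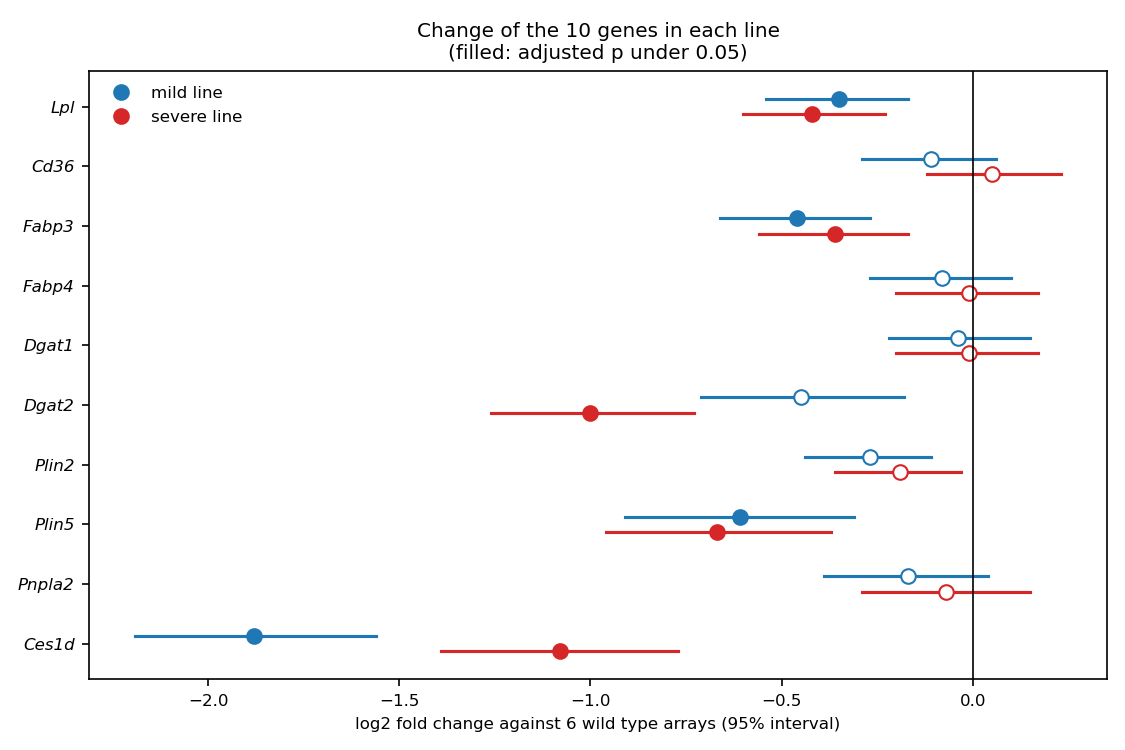
Log2 fold change of each gene in the mild line (blue) and the severe line (red) against the 6 wild type arrays (x axis), with its 95% interval from the limma fit; filled points had an adjusted p under 0.05. Of all points, 9 are filled and all of those lie left of 0; Ces1d in the mild line lies farthest out, at -1.88.

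The median log2 fold change over the 10 members was -0.31 (mild) and -0.28 (severe), against 0 and -5e-04 over all features. Over the 8 members above the median signal the medians were -0.40 and -0.39, against 0.004 and -0.005 for all such features. Against the 6 wild type arrays, all 10 genes had a log2 fold change below 0 in the mild line. For the severe line 9 did, Cd36 being the exception at 0.05, but Fabp4 and Dgat1 stood at only -0.01. With own littermates as controls, 10 genes (mild) and 7 genes (severe) were below 0. The share of all features below 0 is not given here, so these signs have no background beside them. Every array of the line lay below every wild type array for 4 genes in the mild line (Lpl, Fabp3, Plin2 and Ces1d) and for 6 in the severe line (these 4, Plin5 and Dgat2), where 3.92% and 3.63% of all features showed such a separation. Against its own 3 littermates, the mild line had 4 called members, Fabp3, Plin5, Dgat2 and Ces1d. The severe line had 3, Lpl, Dgat2 and Ces1d. The share of all features called in that fit is not given here, so these counts have no background beside them.

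Whether the lines differed from each other was tested directly. Ces1d was 0.80 lower in the mild line than in the severe line on the log2 scale (SE 0.17, limma adjusted p = 0.0228), the only member called among the 10, beside 1.37% of all features. This call was lost without mild line replicate 2 or 3 (log2 differences of -0.77 and -0.76, adjusted p = 0.0874 and 0.107) and without severe line replicate 2 or 3 (-0.66 and -0.79, adjusted p = 0.11 and 0.0713). With each line measured against its own littermates, Ces1d changed by -2.08 (mild) and -0.87 (severe). The difference of those changes was -1.21 (SE 0.20, limma adjusted p = 0.00995), where 0.266% of all features were called. Dgat2 stood the other way, 0.55 higher in the mild line than in the severe line (SE 0.15, limma adjusted p = 0.0694), with no overlap between the 3 arrays of each, and did not pass. Without replicate 2 of the severe line's littermates, which entered only through the shared estimate of the spread, the same difference had an adjusted p of 0.00825. With the arrays scaled to a common median in place of quantile normalization the called gene changed: Ces1d was lost (-0.71, limma adjusted p = 0.077) and Dgat2 passed (0.65, limma adjusted p = 0.038).

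For the other 8 genes the 95% interval of the difference between the lines included 0. Lpl differed by 0.07 (95% interval -0.15 to 0.28), Fabp3 by -0.10 (-0.33 to 0.13) and Plin5 by 0.06 (-0.29 to 0.40). Differences of this size between the lines were not resolved.

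The wild type littermates of the lines offered a comparison without transgene. No member was called between them (limma, 0 of 10), beside 0.0875% of all features, but 2 had an unadjusted p under 0.05. The share of all features under that unadjusted cut is not given here, so this count has no background beside it. Ces1d was 0.41 higher in the littermates of the mild line (SE 0.14, unadjusted p = 0.0118, limma adjusted p = 0.344) and Fabp3 0.24 higher (SE 0.093, unadjusted p = 0.0196, limma adjusted p = 0.392). A change against own littermates and a change against all 6 wild type arrays therefore differ for both genes, as given above. Plin5 was 0.31 higher in the littermates of the mild line (SE 0.15, limma unadjusted p = 0.054, adjusted p = 0.513). Its log2 fold changes against own littermates were -0.76 (mild) and -0.51 (severe), in place of -0.61 and -0.67.

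**Figure D3:**
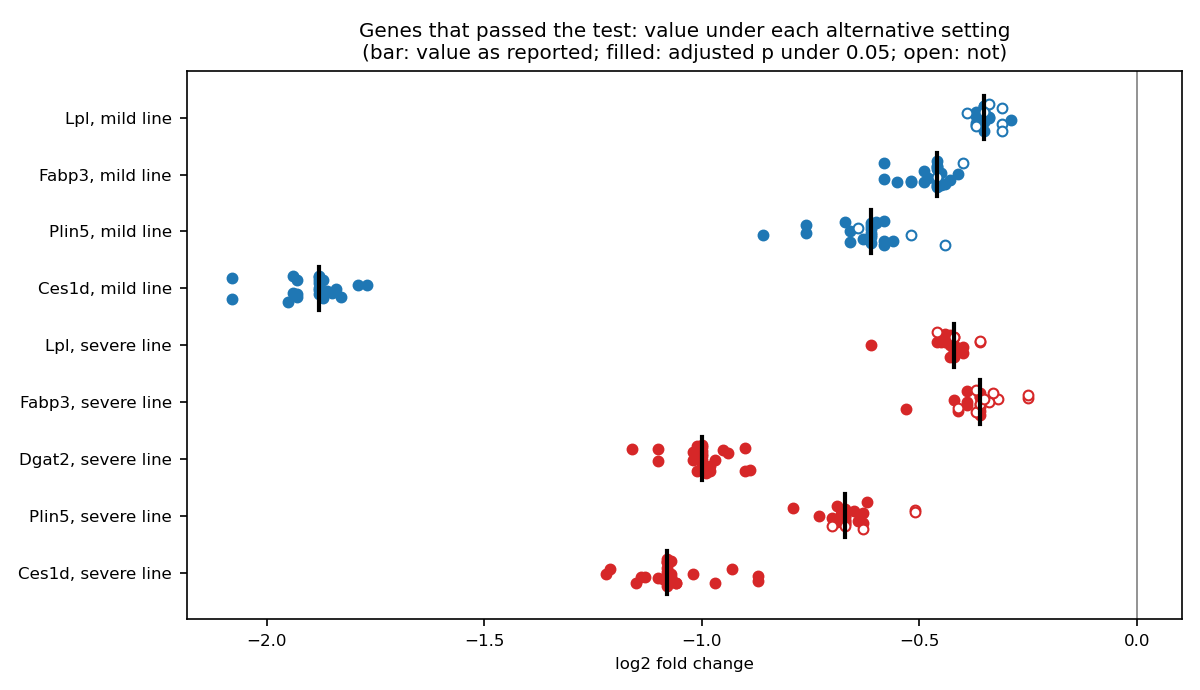
Log2 fold change (x axis) of each gene that passed the test, under each of 24 alternative settings (points; filled where the adjusted p stayed under 0.05, open where it did not), with the reported value as a black bar. All points stay below 0; Ces1d in both lines and Dgat2 in the severe line have filled points only.

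Other genes of the path were taken from 5 lists of fatty acid uptake and activation, lipoprotein lipase and its partners, triglyceride synthesis, lipid droplet proteins, and lipolysis. Of 91 genes listed, 81 were measured, each by its brightest feature. In the mild line 9 were lower (11.1%) and 0 higher, and in the severe line 8 were lower (9.88%) and 2 higher. Over the brightest features of all 19014 genes, 2.64% were lower and 2.27% higher in the mild line. In the severe line 2.1% were lower and 2.39% higher. The lists were chosen with earlier results of these data known, so these shares are no independent test. The median log2 fold change of the 81 genes was -0.04 in each line, so most of them lay near 0. Called lower in both lines were 4 genes, Slc27a1, Vldlr, Fitm1 and Fitm2.

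Slc27a1 encodes FATP1, which takes up and activates long-chain fatty acids. Wild type arrays ran from 8.10 to 8.50, mild line arrays from 7.78 to 7.92 and severe line arrays from 7.56 to 7.75. Neither line overlapped wild type. The mild line fell by 0.46 (limma adjusted p = 0.00141) and the severe line by 0.65 (limma adjusted p = 6.73e-05). Both calls held in all 24 alternative settings, and Slc27a1 was the one lower gene of the 18 measured uptake and activation genes in the mild line. In the severe line Acsl6, an acyl-CoA synthetase read near the median signal, was lower as well (-0.34, limma adjusted p = 0.0104), a call lost without severe line replicate 2 and against own littermates, with log2 fold changes from -0.55 to -0.25 over the 24 settings.

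Vldlr encodes the very-low-density lipoprotein receptor, which delivers triglyceride-rich particles to the enzyme. It ran from 10.01 to 10.42 in wild type, 9.67 to 9.87 in the mild line and 9.48 to 9.96 in the severe line. It fell by 0.45 in each line (limma adjusted p = 0.0362 and 0.0342), but each call was lost in 10 of 24 alternative settings. In the mild line these included the omission of any mild line array, of any of its littermates or of replicate 2 of the severe line's littermates, with log2 fold changes over all settings from -0.55 to -0.38. For the severe line they included its own littermates as controls (-0.35, limma adjusted p = 0.207) and the omission of severe line replicate 1 or 2, of any littermate of the mild line or of replicate 2 of its own littermates, with values from -0.58 to -0.30. Of 11 measured genes in this list the other called one was Lmf1, which encodes a maturation factor of lipases, lower in the mild line by the brighter of its 2 features (-0.36, limma adjusted p = 0.0152, lost without mild line replicate 1 or 3, -0.44 to -0.15 over the settings), while its other feature stood at 0.06.

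Fitm1 and Fitm2 encode membrane proteins of the endoplasmic reticulum that partition triglyceride into budding droplets. Fitm1, the form of muscle, ran from 8.75 to 9.0 in wild type, 8.11 to 8.42 in the mild line and 8.18 to 8.44 in the severe line. The mild line fell by 0.63 (limma adjusted p = 7.02e-05), the severe line by 0.61 (limma adjusted p = 0.000147). Fitm2 ran from 10.87 to 11.00 in wild type, 10.30 to 10.59 in the mild line and 10.41 to 10.55 in the severe line. Here the mild line fell by 0.51 (limma adjusted p = 0.000133), the severe line by 0.46 (limma adjusted p = 0.000587). Neither gene overlapped wild type in either line, and the 4 calls held under all 24 alternative settings. They were the 2 lower genes of the 13 measured droplet protein genes, where Aup1 was higher in the severe line (0.27, limma adjusted p = 0.0415), a call lost in 15 of 24 settings, among them the omission of any severe line array and own littermates as controls (0.22, limma adjusted p = 0.217).

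Of 15 measured genes of triglyceride synthesis none was called in both lines. In the mild line Agpat2 (-0.54, limma adjusted p = 0.0253), Gpat3 (-0.36, limma adjusted p = 0.0256) and Lclat1 (-0.33, limma adjusted p = 0.0229) were lower, all acyltransferases of glycerolipids. Lclat1 was read near the median signal. With its 2 features averaged, Agpat2 was not called (-0.46, limma adjusted p = 0.0613). Agpat3 was lower in the severe line (-0.50, limma adjusted p = 0.0288). Gpat3 was the one gene of the 81 that differed between the lines (mild minus severe -0.44, limma adjusted p = 0.0389), beside 1.37% of all features. A count of 1 in 81 is near that share. The other feature of Gpat3 stood at 0.03 (mild) and 0.06 (severe) against wild type. Mild line replicate 2 was needed for all 3 of the mild line calls, replicate 3 also for those of Agpat2 and Lclat1, and replicate 1 also for that of Gpat3; over the 24 settings Agpat2 ran from -0.69 to -0.38, Gpat3 from -0.46 to -0.16 and Lclat1 from -0.56 to -0.24. The call of Agpat2 was also lost without replicate 1 or 2 of the mild line's littermates, and that of Gpat3 without replicate 1 of these or replicate 3 of the severe line's littermates. Against the mild line's own littermates Gpat3 (-0.32, limma adjusted p = 0.156) and Lclat1 (-0.31, limma adjusted p = 0.109) were not called. The call of Agpat3 was lost against the severe line's own littermates (-0.41, limma adjusted p = 0.17) and when any severe line array, or replicate 1 or 3 of the mild line's littermates, was left out (-0.59 to -0.41 over the settings). In lipolysis (25 measured), Pnpla8, a calcium-independent phospholipase of mitochondria and peroxisomes, was lower in the mild line (-0.40, limma adjusted p = 0.00113, in all 24 settings). Mgll, the monoacylglycerol lipase, was lower in the severe line (-0.31, limma adjusted p = 0.032, lost in 10 settings, among them without severe line replicate 1 or 3 or any littermate of the mild line, with values from -0.45 to -0.24). The carboxylesterase genes Ces2g (-0.30) and Ces5a (0.32) were called in the severe line near the median signal. Neither was called without severe line replicate 2 or 3. Like Mgll (-0.24, limma adjusted p = 0.204), neither was called against the severe line's own littermates (limma adjusted p = 0.275 and 0.12). Over the settings Ces2g ran from -0.51 to -0.20 and Ces5a from 0.23 to 0.57. The call of Ces2g was lost in 13 of 24 settings, among them the deposited log2 table (-0.22, limma adjusted p = 0.0574) and the omission of any severe line array or any littermate of the mild line. The other feature of Ces5a stood at 0.06 (mild) and 0.54 (severe).

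**Figure D4:**
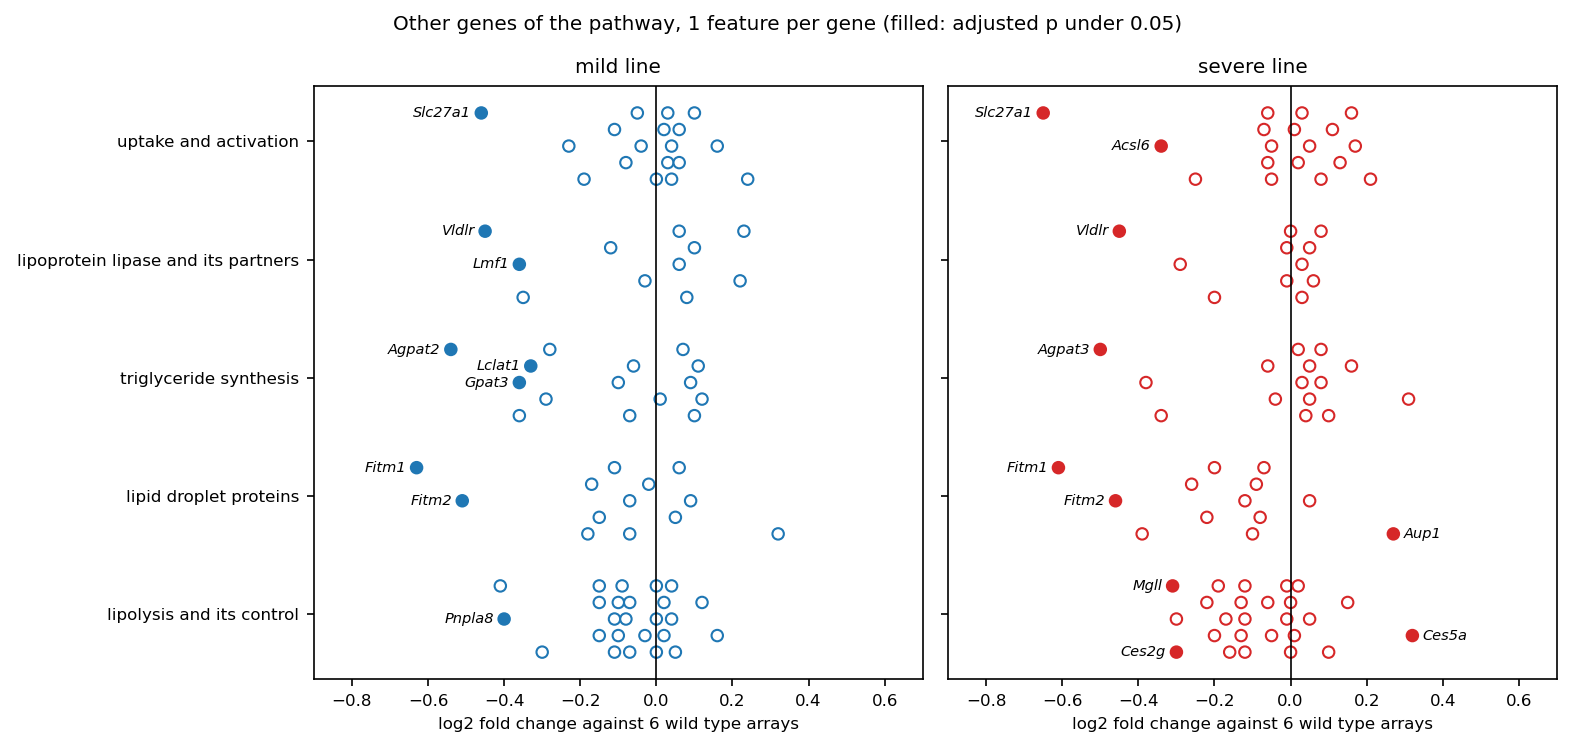
Log2 fold change against the 6 wild type arrays (x axis) of the other genes of the path, by list (y axis), in the mild line (left) and the severe line (right); each point is a gene, and the filled, named points had an adjusted p under 0.05. Most genes lie near 0, and the called ones are mostly to the left, with Slc27a1, Vldlr, Fitm1 and Fitm2 in both panels.

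Several of these genes are active in cells other than heart muscle, so markers of such cells were read in the same fit. Of 11 adipose markers measured, 0 were called in either line and 9 were near the median signal. Adipoq ran from 6.68 to 7.83 in wild type, 6.93 to 7.59 in the mild line and 6.54 to 6.96 in the severe line. Adipoq had log2 fold changes of 0.10 (mild, limma adjusted p = 0.912) and -0.41 (severe, limma adjusted p = 0.356), and that of Ucp1, near the median signal, was 0.09 and -0.53 (limma adjusted p = 0.958 and 0.555). The summed adipose intensity was 1270 to 1770 in wild type, 1490 to 1650 in the mild line and 1170 to 1350 in the severe line, but with 9 dim probes it is largely background and the signal of Cidea, so it does not measure adipose content. Of 13 endothelial markers 0 were called, with a summed intensity of 15100 to 18100 in wild type, 16600 to 17300 in the mild line and 14700 to 16200 in the severe line. Of 9 macrophage markers Mrc1 was lower in the mild line (-0.32, limma adjusted p = 0.0491). This call was lost against the mild line's own littermates (limma adjusted p = 0.341). Over the brightest features of all 19014 genes, 2.64% were lower and 2.27% higher in the mild line. In the severe line 2.1% were lower and 2.39% higher. At such shares a list of this length can hold few or no calls, so these 3 counts do not show that cell content was unchanged. The 9 heart muscle markers were bright in every group, and their summed intensity overlapped between groups, but Ryr2 and Pln, which encode calcium handling proteins, were lower in both lines (Ryr2 by log2 fold changes of -1.11 and -0.49, Pln by -1.09 and -0.68) and Actn2 was higher in the mild line (0.27). These are the values of the brightest feature; the other feature of Ryr2 stood at -0.03 and -0.22, and that of Actn2 at 0.15 in the mild line. The part of cell composition in the differences above was not tested.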

How the data were processed

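Whole heart RNA of 12 arrays in 4 groups was measured. The authors deposited bead summary intensity values for each array, not normalized, and a table of log2 values that they had background corrected and quantile normalized; GenomeStudio and limma are named in the processing notes without versions, and the background method and genome build are not given in the sources used here. No detection p-values were used.

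From the intensities, background was corrected with normexp (offset 50), arrays were quantile normalized and values were log2 transformed. The 45281 identifiers held 30854 distinct rows of values, each used once as a feature, and 6 lines without an identifier were left out. Group means were fitted with limma 3.58.1 (R 4.3.3) over all features, with Benjamini-Hochberg adjustment. The fitting code was run on simulated data with known changes and independent noise. Those data held no litter differences, so the run checked the code and not the design. A second fit kept the littermates of each line apart. Symbols were updated through gene IDs with RefSeq (GRCm38.p6); 34885 identifiers had 1 symbol, 18 several and 10378 none. Near the median signal means a mean under 6.78 in every group.

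All 10 members are named, and from each other list at most 4 called genes per line, those with the largest change; exceptions are stated. The members and lists were chosen with earlier results of these data known. Littermate replicate numbers did not pair arrays: of 6 pairs, 1 correlated over 0.1. Alternatives were another background correction, scaling, filters, weights, control sets and thresholds, the deposited log2 table, and leaving out each array. The number of arrays limits the precision.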

Additional observations from a re-analysis of the deposited data

Results flagged for a closer look

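Ces1d was singled out because its change differed between the lines when each was set against its own littermates. The difference of the changes (mild minus severe) was -1.21 on the log2 scale (limma adjusted p = 0.00995), with all 3 mild line arrays and all 3 severe line arrays below their own littermates. The littermates of the mild line were themselves 0.41 higher than those of the severe line (limma adjusted p = 0.344). Measured against all 6 wild type arrays, the difference between the lines was -0.80 (limma adjusted p = 0.0228). No array of the pooled wild type group passed Dixon's test as an outlier for any of the 10 genes, and groups of 3 were not tested. With 6 arrays the test can miss an array that stands apart. Replicate 2 of the severe line's littermates came near the critical ratio of gap to range, 0.625, for Lpl (0.571) and Dgat2 (0.562).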

How the results depend on the processing

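The count of called members was 4 in the mild line, 5 in the severe line, 1 between the lines and 0 between the littermates. With a background offset of 16 the counts were 1, 2 and 0 for the first 3 comparisons. Under an adjusted p of 0.01 they were 2, 2 and 0, and under the 2-fold rule 1, 1 and 0. Ces1d was called in both lines in each of these settings. How many of all features were called under each setting is not given here. A changed count is therefore not a result about the members alone. In the mild line, array weights gave 6 members and the fit limited to features over the median signal gave 5. Array weights gave 2 members between the lines, as did a fit on the compared arrays alone. Median scaling left that count at 1 but with Dgat2 in place of Ces1d. For the mild line against wild type it left 4 members, with Dgat2 in place of Lpl. Own littermates as controls gave 3 in the severe line. Leaving out 1 array at a time gave 1 to 5 in the mild line (lowest without mild line replicate 3, and 2 without replicate 2), 3 to 5 in the severe line (lowest without any of its own replicates) and 0 to 2 between the lines. The littermate count stayed 0 in 24 alternatives. Replicate numbers showed no pairing of the arrays (correlations from -0.427 to 0.134, 1 pair of 6 over 0.1, 1 array best with its own number), though groups of 3 cannot exclude it. With the replicate block, 4 members were called in the mild line, 2 in the severe line and 1 between the lines. With identifiers left unmerged, the copies of Lpl and Plin5 counted again. No member called in either line changed sign in any of 24 alternatives. The dim probes of Cd36 and Fabp4 limit what can be said of those genes. The cause of the lost calls was not tested.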
